A study of Mus musculus with 24 samples.

Results

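The genes described here are 10 members of the AP-1 and immediate early response: the Fos family (Fos, Fosb, Fosl1 and Fosl2), the Jun family (Jun, Junb and Jund), and the transcriptional regulators Atf3, Egr1 and Ier2. They were taken by name and not by a cut on measured values, but with earlier results of these data known. They are 10 of the 35855 genes summed from the deposited tables. All 10 had enough counts in the 24 libraries to be tested. The mice were naive, wild-type, female C57BL/6 animals. Each SmartSeq2 library holds 1000 cells sorted as epithelial cells of the trachea, read as pairs of 38 bp. There were 8 libraries in each of 3 sorted groups, named for a high or a low amount of BCAM, a laminin-binding surface protein, or as differentiated. Both BCAM groups are, as the title of the series has it, kinds of basal cell, the stem cell layer of this epithelium. All groups share genotype, sex and absence of treatment. Replicates 1 to 5 of each group form batch 1 and replicates 6 to 8 form batch 2, and the labels do not say what a batch is. Nor do they say that libraries came from separate animals, so p-values measure only the spread between these samples, which may be technical.

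AP-1 is a dimer of basic leucine zipper proteins, in which a Fos protein must pair with a Jun protein while Jun proteins can also pair with each other or with ATF proteins. Growth factors, stress and injury raise transcription of immediate early genes within minutes through MAP kinases, with no need for new protein, and the transcripts are short-lived. The same genes are known to be induced while tissue is dissociated into single cells. In airway epithelium they are known for their part in the response to injury and in repair.

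Estimated counts totalled 1824619 to 4440072 per library. Levels are given as CPM, counts relative to library totals scaled by TMM (trimmed mean of M values), or, where genes are compared with each other, as TPM, which also takes transcript length into account. Basal markers (8 genes, among them Krt5 and Trp63) summed to 5198 to 7933 CPM (BCAM high), 5024 to 5531 CPM (BCAM low) and 241 to 2423 CPM (differentiated). Secretory markers (7 genes, among them Scgb1a1) summed to 25769 to 34792 CPM in BCAM high and 34446 to 75056 in BCAM low. The differentiated group was not uniform. Its 5 libraries of batch 1 held 290051 to 423950 CPM of secretory markers and 13848 to 26044 of thyroid markers (8 genes, among them Tg). Its 3 libraries of batch 2 held 13410 to 89552 and 49671 to 117222. In differentiated 6 and 7 thyroid markers (83507 and 117222 CPM) stood above secretory markers (19885 and 13410). The name differentiated is thus that of the sort and does not mean that these libraries held airway cells alone. Parathyroid and neuroendocrine markers (8 genes) summed to 603 to 29265 CPM in batch 1 and 115 to 541 in batch 2 of that group, the highest in differentiated 2. Elsewhere they stood at 458 CPM in BCAM low 7, at 5.72 or less in its group otherwise, and at 15.1 or less in BCAM high libraries. Thyroid markers moved with batch in the BCAM groups as well, with 1.71 to 41.0 CPM in batch 1 and 79.5 to 1285 in batch 2 of BCAM high. For BCAM low these ranges were 3.10 to 9.43 and 11.6 to 247. The mitochondrial share of counts was also lower in batch 2, with no overlap: 1.95% to 3.70% against 4.16% to 5.67% in BCAM high, 1.73% to 3.80% against 4.71% to 6.62% in BCAM low, and 1.45% to 2.89% against 3.20% to 3.98% in differentiated libraries. Immune markers summed to at most 149 CPM, fibroblast to at most 672, endothelial to at most 54.7 and smooth muscle to at most 57.3 in any library. Of the genes on the thyroid list, none was at 0 in every library of a group. The part of all these marker transcripts in the results below was not tested. Calls lost without the 3 differentiated libraries of batch 2 are named beside the results. In such pools, fewer cells that express a gene and less RNA per cell cannot be told apart.

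The 10 genes together took 1.21% of all estimated counts in BCAM high libraries (range 1.01 to 1.40), 0.881% in BCAM low (0.611 to 1.10) and 0.675% in differentiated libraries (0.583 to 0.795). Fos was the most abundant of them on the TPM scale, with group means of 2393 TPM (BCAM high), 1554 TPM (BCAM low) and 1140 TPM (differentiated). It ranked 48th, 62nd and 69th among all genes in these groups. Neither these TPM nor the shares of counts are scaled by TMM, so they do not order the groups as CPM does. Mean Fos was 4122 CPM in BCAM high, 3079 CPM in BCAM low and 3350 CPM in differentiated libraries, with BCAM low below differentiated. After Fos in TPM came Junb, Jun, Egr1 and Atf3, with mean levels over all libraries of 678, 490, 393 and 378 TPM. Ier2 and Fosb were lower at 139 and 107 TPM, and Fosl2, Fosl1 and Jund lowest at 24.6, 11.6 and 9.66 TPM. Over the 24 libraries the TPM ranges of all neighbours in this order overlapped, for instance 193 to 928 for Jun and 187 to 782 for Egr1. Within libraries, Fos lay above Junb and Fosb above Fosl2 in 24 of 24, whereas Egr1 lay above Atf3 in 14 and Fosl1 above Jund in 13.

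**Figure D1:**
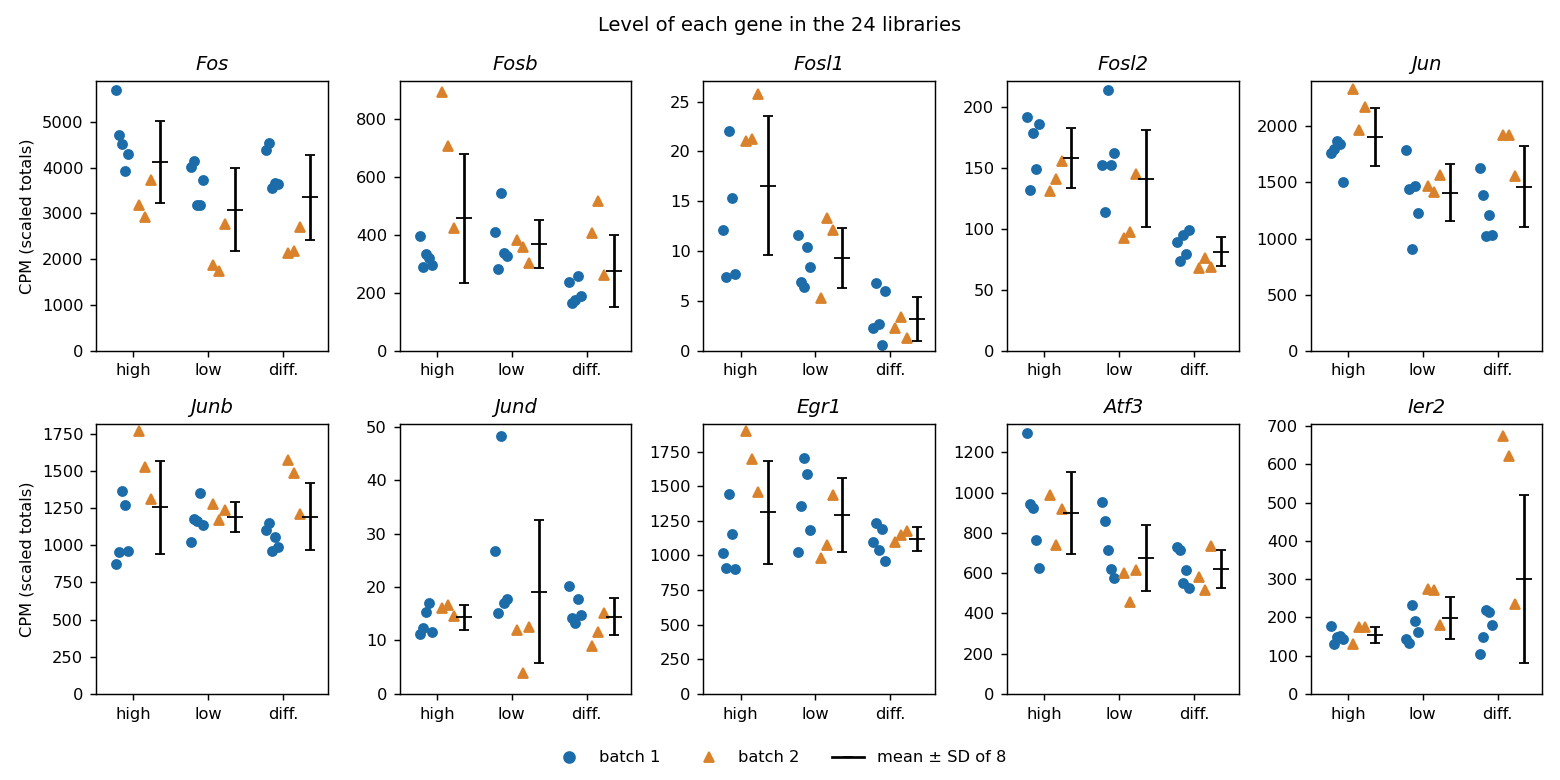
CPM of each of the 10 genes (y axis, each panel from 0) in BCAM high, BCAM low and differentiated libraries (x axis). Circles are batch 1, triangles batch 2, and the bar is the mean ± SD of 8 libraries. Fos of batch 2 lies below batch 1 in every group, and Ier2 reaches 675 CPM in a differentiated library of batch 2.

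The Fos locus (ENSMUSG00000021250) lies on chromosome 12 at 85473890-85477273, plus strand, and the Jun locus (ENSMUSG00000052684) on chromosome 4 at 95049034-95052222, minus strand, in GENCODE M21 on GRCm38. Other loci are Fosb on chromosome 7 at 19302696-19310051 (minus), Fosl1 on chromosome 19 at 5447547-5455946 (plus), Fosl2 on chromosome 5 at 32135801-32157842 (plus), Junb on chromosome 8 at 84974484-84978718 (minus), Jund on chromosome 8 at 70698949-70700616 (plus), Ier2 on chromosome 8 at 84661331-84662852 (minus) and Atf3 on chromosome 1 at 191170296-191218039 (minus); the position of Egr1 is not given here. RefSeq promoters on GRCm38.p6 were matched for 7 of the 10 genes. The stretches that follow are shown because genes of this set are activated through their promoters by CREB and ATF proteins as well as by serum response factor. Each ends at the base before the start site of the RefSeq table, reads 5′ to 3′ along the gene, and has in capitals the core of the cAMP response element, TGACG, or its reverse complement CGTCA.
Fos, chr12:85473750-85473889, plus strand: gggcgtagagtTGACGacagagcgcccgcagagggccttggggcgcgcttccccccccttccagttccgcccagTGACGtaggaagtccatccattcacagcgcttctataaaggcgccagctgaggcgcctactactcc
Fosb, chr7:19310046-19310125, minus strand: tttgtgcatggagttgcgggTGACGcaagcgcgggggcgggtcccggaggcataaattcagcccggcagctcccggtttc
Junb, chr8:84978749-84978868, minus strand: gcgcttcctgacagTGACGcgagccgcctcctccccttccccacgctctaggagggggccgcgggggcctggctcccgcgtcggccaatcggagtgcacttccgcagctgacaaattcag
Atf3, chr1:191183334-191183413, minus strand: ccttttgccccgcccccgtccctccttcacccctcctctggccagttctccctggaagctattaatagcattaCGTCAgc
Jun, chr4:95052223-95052302, minus strand: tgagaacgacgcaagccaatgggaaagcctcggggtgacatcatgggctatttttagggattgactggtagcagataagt
In the 250 bases before the start, on both strands, TGACG was found in 4 of the 7 promoters (the upper 4 shown) and in 17.8% of 32851 promoters of the table. In Fos it stood 129 to 125 and 66 to 62 bases before the start, in Fosb 60 to 56, in Junb 106 to 102, and in Atf3 7 to 3 on the opposite strand. The full element TGACGTCA, the AP-1 site TGAGTCA and the CArG box bound by serum response factor were in 0 of 7, against 1.55%, 4.46% and 1.47% of all promoters. Only exact matches within 250 bases were counted, so sites farther upstream and variant sites were missed. Absence here therefore does not show that a gene lacks the element. TGACGTCA contains TGACG. The Atf3 start of the table lies inside the annotated locus, downstream of its outermost start. That of Fosl2 also lies inside its locus, with the promoter ending at 32136471. The Jund start lies upstream of its locus, with the promoter ending at 70697738. For these genes the bases searched are not those before the outermost GENCODE start.

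The contrast between the basal subsets comes first. Fos and Jun, partners in the classical AP-1 dimer, were higher in BCAM high cells, by 1.37-fold and 1.34-fold. Of the 10 members 2 passed the test, both higher (edgeR quasi-likelihood test, Benjamini-Hochberg adjusted p under 0.05). Of all 12211 genes tested, 7.02% were called, 2.43% as higher and 4.59% as lower. The median log2 difference of the members was 0.18 and of all genes 0.00.

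Fos encodes the founding member of its family. It ran from 2921 to 5691 CPM in BCAM high (median 4114) and from 1750 to 4145 in BCAM low (median 3180). The ranges overlapped, but Fos was higher in BCAM high in 8 of 8 comparisons of libraries with the same number. The log2 difference was 0.45 (SE 0.11, edgeR adjusted p = 0.00936). Within batch 1 it was 0.35 (edgeR adjusted p = 0.0654) and within batch 2 it was 0.62 (edgeR adjusted p = 0.0923), so the direction held and the call did not.

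Jun encodes c-Jun, the main partner of Fos and a target of the JNK kinases. It ran from 1506 to 2333 CPM in BCAM high (median 1856) and from 904 to 1785 in BCAM low (median 1453), and was higher in 7 of 8 same-numbered comparisons. The log2 difference was 0.43 (SE 0.12, edgeR adjusted p = 0.0246). It was 0.37 within batch 1 (edgeR adjusted p = 0.163) and 0.54 within batch 2 (edgeR adjusted p = 0.0617). Without BCAM high 3, BCAM low 3 or BCAM low 7 the call for Jun was lost, with an adjusted p of at most 0.0557.

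Atf3, a stress-induced member of the ATF and CREB family, was higher in BCAM high in 8 of 8 same-numbered comparisons, at 624 to 1298 CPM (median 921) against 455 to 954 (median 619). Its log2 difference of 0.42 (SE 0.14) missed the threshold in edgeR (adjusted p = 0.0584). It was called by DESeq2 (adjusted p = 0.0421), with the replicate number as a block (0.42, edgeR adjusted p = 0.0054), by limma on both TPM scales (adjusted p = 0.0349 and 0.0405) and without the 3 differentiated libraries of batch 2 (edgeR adjusted p = 0.0393). Fosl1, which encodes Fra-1, had the largest fitted difference of the set, 0.80 with a 95% interval of 0.18 to 1.42, and was not called (edgeR adjusted p = 0.131). Junb and Egr1 had differences of 0.05 (interval -0.16 to 0.26) and 0.00 (-0.28 to 0.27), intervals that overlap that of Jun (0.19 to 0.66). Their signs differed by batch: -0.10 and -0.33 within batch 1, and 0.32 and 0.53 within batch 2. None of these was called (edgeR adjusted p from 0.104 to 0.661). Fosb, Fosl2, Jund and Ier2 ranged from -0.34 to 0.19 and none was called.

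**Figure D2:**
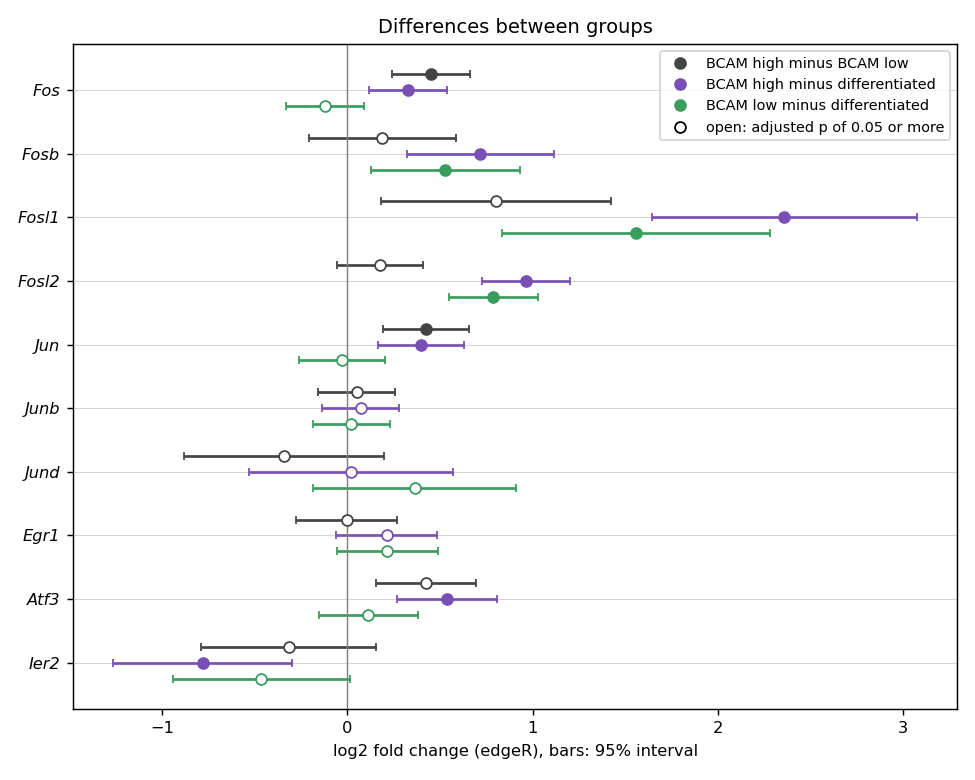
Fitted log2 fold change (x axis) of each gene (y axis) in the 3 group comparisons, with 95% intervals as bars. Filled points have an edgeR adjusted p under 0.05. Fosl1 and Fosl2 lie farthest to the right in both comparisons with differentiated cells, and Junb, Jund and Egr1 have only open points.

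The comparisons with the differentiated group share its 8 libraries, so they are given side by side and not as support for each other. In BCAM high against differentiated, 7 of the 10 members were called, 6 higher (Fos, Fosb, Fosl1, Fosl2, Jun and Atf3) and Ier2 lower. The background here was wide: 41.3% of all genes were called, with 19.4% higher and with 22% lower in BCAM high. In BCAM low against differentiated, 3 were called, all higher (Fosb, Fosl1 and Fosl2), where 33.5% of all genes were called, 16.3% higher and 17.1% lower. Median log2 differences of the members were 0.36 and 0.16, against 0.02 and 0.02 over all genes.

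The Fos-related genes Fosl1 and Fosl2 differed most. Fosl2 encodes Fra-2, which like Fra-1 lacks the strong transactivation domain of Fos. Fosl2 ran from 131 to 192 CPM in BCAM high (median 153), from 92.2 to 214 in BCAM low (median 149) and from 67.8 to 99.3 in differentiated libraries (median 77.9). BCAM high and differentiated libraries did not overlap. Fosl2 was 1.95-fold higher in BCAM high than in differentiated cells (log2 difference 0.97, SE 0.12, edgeR adjusted p = 2.16e-07) and 1.73-fold higher in BCAM low (0.79, SE 0.12, edgeR adjusted p = 9.21e-06).

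Fosl1 ran from 7.36 to 25.8 CPM in BCAM high (median 18.1), from 5.29 to 13.3 in BCAM low (median 9.44) and from 0.555 to 6.81 in differentiated libraries (median 2.47). Its counts were low, with 1 to 11 per differentiated library against 28 to 90 per BCAM high library. It was 5.14-fold higher in BCAM high than in differentiated cells (log2 difference 2.36, SE 0.37, edgeR adjusted p = 5.32e-06) and 2.95-fold higher in BCAM low (1.56, SE 0.37, edgeR adjusted p = 0.00151). Fosl1 and Fosl2 were the members, 2 of 10, whose BCAM high libraries all lay above all differentiated ones, where 6.1% of all genes did so. No member had BCAM low libraries all above the differentiated ones, against 3.44% of all genes, and none had BCAM high all above BCAM low, against 0.5%. Both genes stayed called in both comparisons under every alternative run and without each library in turn.

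Fosb encodes a Fos relative that is also spliced into a shorter, more stable protein. Its CPM ran from 291 to 895 in BCAM high (median 365), 281 to 546 in BCAM low (median 348) and 163 to 517 in differentiated libraries (median 248). The log2 difference from differentiated cells was 0.72 for BCAM high (SE 0.20, edgeR adjusted p = 0.00616) and 0.53 for BCAM low (SE 0.20, edgeR adjusted p = 0.0495). The latter sat at the threshold: it was lost in 18 of the 24 fits that leave out 1 library, all but those without BCAM high 6, BCAM low 6, 7 or 8, or differentiated 6 or 7. Within batch 1 alone it was 0.89 (edgeR adjusted p = 0.000129) and within batch 2 alone -0.19 (edgeR adjusted p = 0.734). The BCAM high difference was 0.68 in batch 1 (edgeR adjusted p = 0.00171) and 0.76 in batch 2 (edgeR adjusted p = 0.0724).

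Fos, Jun and Atf3 were higher in BCAM high than in differentiated cells and were not called between BCAM low and differentiated cells. Fos in differentiated libraries ran from 2139 to 4525 CPM (median 3602), and the log2 difference was 0.33 for BCAM high (SE 0.11, edgeR adjusted p = 0.0159) and -0.12 for BCAM low (edgeR adjusted p = 0.403). Jun in differentiated libraries ran from 1018 to 1926 CPM (median 1473), with differences of 0.40 (SE 0.12, edgeR adjusted p = 0.00812) and -0.03 (edgeR adjusted p = 0.87). For Atf3, at 514 to 733 CPM in differentiated libraries (median 598), they were 0.54 (SE 0.14, edgeR adjusted p = 0.00219) and 0.11 (edgeR adjusted p = 0.562). The call for Fos was lost without BCAM high 1 or 8 (adjusted p at most 0.0603) and without the 3 differentiated libraries of batch 2 (0.29, edgeR adjusted p = 0.0704). Within batches, Fos was not called (0.23, edgeR adjusted p = 0.12, and 0.49, edgeR adjusted p = 0.071), and Jun was called in batch 1 (0.48, edgeR adjusted p = 0.0152) and not in batch 2 (0.26, edgeR adjusted p = 0.23). The BCAM high call for Atf3 held within each batch (0.54 and 0.53), under the other alternatives and without each library in turn.

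Ier2, a short nuclear regulator with no leucine zipper, went the other way. It ran from 130 to 178 CPM in BCAM high (median 150), 133 to 274 in BCAM low (median 185) and 103 to 675 in differentiated libraries (median 217). The log2 difference of BCAM high from differentiated cells was -0.78 (SE 0.25, edgeR adjusted p = 0.0134). Differentiated 6 and differentiated 7, at 675 and 622 CPM, stood above every other library, and these were also the libraries with the most thyroid transcripts, 83507 and 117222 CPM. Without the 3 differentiated libraries of batch 2 the difference was -0.28 (edgeR adjusted p = 0.227), and within batch 1 it was -0.20 (edgeR adjusted p = 0.409).

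Junb, Jund and Egr1 were not called in any group comparison. Junb, which can restrain c-Jun, had median levels of 1292, 1175 and 1125 CPM in BCAM high, BCAM low and differentiated libraries. Its difference from differentiated cells was 0.07 for BCAM high (interval -0.14 to 0.28) and 0.02 for BCAM low (-0.19 to 0.23). Egr1, a zinc finger factor induced through the same kinases, had medians of 1299, 1269 and 1125 CPM and differences of 0.21 (-0.06 to 0.48) and 0.22 (-0.06 to 0.49). Within batch 2 alone Egr1 was called in BCAM high against differentiated cells (0.56, edgeR adjusted p = 0.0218). Jund, the more steadily expressed Jun gene in most tissues, was read at medians of 14.97, 16.1 and 14.5 CPM, and its intervals reached from -0.53 to 0.57 and from -0.19 to 0.91.

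These differences are relative to the bulk of the transcriptome in each group. On the log2(TPM + 1) scale, tested with limma, the median of all genes itself was shifted by 0.61 in BCAM high against differentiated cells and by 0.39 in BCAM low against differentiated cells, with 0.22 between the BCAM groups and 0.11 between batches. On that scale 9 of the 10 members were called as higher in the former comparison, where 50.3% of all genes were. Relative to the shift, Junb, Jund and Egr1 differed by 0.20, 0.06 and 0.33 in it, Fosl1 and Fosl2 by 1.76 and 0.91, and Ier2 by -0.54. Jun in BCAM low minus differentiated cells turned from -0.03 to 0.53, or 0.14 above the shift.

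Levels of 6 members differed between the batches. As a mean over the 3 groups, Fos and Fosl2 were lower in batch 2. Fosb, Jun, Junb and Ier2 were higher in that mean, though Fosb was not higher in BCAM low. That is 6 of 10 members called, 4 higher and 2 lower, where 21.4% of all genes were called, 11.8% higher and 9.61% lower. The log2 difference of batch 2 from batch 1 was -0.68 for Fos (SE 0.09, edgeR adjusted p = 7.74e-06) and -0.35 for Fosl2 (SE 0.10, edgeR adjusted p = 0.0156). It was 0.65 for Fosb (SE 0.17, edgeR adjusted p = 0.00812), 0.34 for Junb (SE 0.09, edgeR adjusted p = 0.00628), 0.31 for Jun (SE 0.10, edgeR adjusted p = 0.0228) and 0.74 for Ier2 (SE 0.20, edgeR adjusted p = 0.0114). Without the 3 differentiated libraries of batch 2, Fos, Fosl2 and Junb stayed called, and Fosb (0.49, edgeR adjusted p = 0.118), Jun (0.21, edgeR adjusted p = 0.208) and Ier2 (0.30, edgeR adjusted p = 0.175) did not. Without differentiated 6 or differentiated 7 alone, the call for Jun was lost. Atf3 (-0.17), Jund (-0.49), Fosl1 (0.28) and Egr1 (0.16) were not called. The pooled fit took the 9 libraries of batch 2 and the 15 of batch 1 as independent. Libraries with the same number deviated together, as given below, so SE and p-values of these pooled differences may be too small. The same holds for the other genes compared between batches below. The part of the lower mitochondrial share of batch 2, given above, was not tested.

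**Figure D3:**
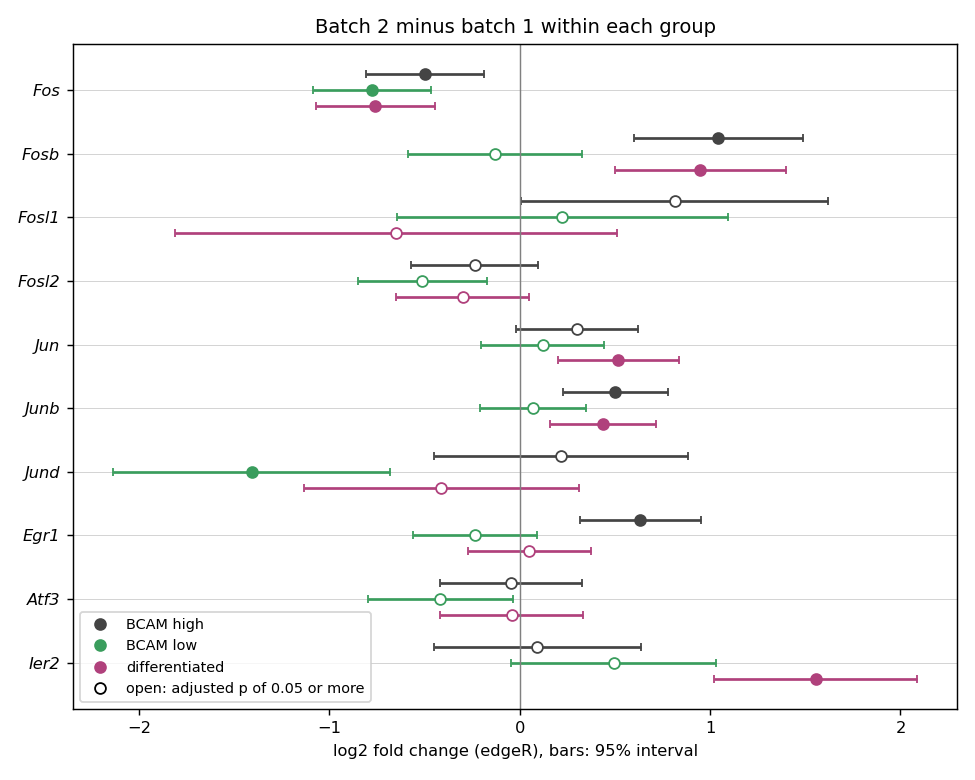
Fitted log2 fold change of batch 2 over batch 1 (x axis) of each gene (y axis) within each group, with 95% intervals as bars. Filled points have an edgeR adjusted p under 0.05. Fos lies left of 0 in all 3 groups, whereas Fosb, Junb and Ier2 have filled points to the right in some groups only.

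Fos was the member whose batch 2 libraries all lay below batch 1 in each group, where 1.2% of all genes did so in all 3 groups. In BCAM high it was 3934 to 5691 CPM in batch 1 and 2921 to 3720 in batch 2 (log2 difference -0.50, edgeR adjusted p = 0.0461). In BCAM low it was 3171 to 4145 and 1750 to 2766 (-0.78, edgeR adjusted p = 0.00126), and in differentiated libraries 3563 to 4525 and 2139 to 2691 (-0.76, edgeR adjusted p = 0.00076). The BCAM high call was lost in 10 of the 24 fits that leave out 1 library (BCAM high 1, 2, 3, 6 or 7, BCAM low 5, or differentiated 1, 3, 5 or 6). On the log2(TPM + 1) scale the differences in BCAM high and differentiated libraries were -0.32 and -0.39 and were not called by limma.

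The members called differed between groups. In BCAM high there were 4 of 10, where 8.04% of all genes were called, 4.93% higher and 3.11% lower: Fos lower, and Fosb (1.04, SE 0.23, edgeR adjusted p = 0.00497), Egr1 (0.63, SE 0.16, edgeR adjusted p = 0.0125) and Junb (0.50, SE 0.14, edgeR adjusted p = 0.0239) higher. Fosb in BCAM high was 423, 706 and 895 CPM in batch 2 against 291 to 396 in batch 1, and Egr1 1457 to 1898 against 905 to 1443. Without BCAM high 6, which held the highest levels of both, none of the 4 stayed called, and the share of all genes called fell to 3.2%. Without BCAM high 7 a single one stayed, with 3.54% of all genes, and without BCAM high 1 or 2 there were 2, with 6.38% and 4.97%. The highest sums of thyroid markers in BCAM high, 443 and 1285 CPM, were in these libraries of batch 2, and their part was not tested.

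In BCAM low there were 2 of 10, both lower, where 11.1% of all genes were called, 4.66% as lower: Fos, and Jund at 3.86 to 12.6 CPM in batch 2 against 15.1 to 48.3 in batch 1 (-1.41, SE 0.37, edgeR adjusted p = 0.011). The Jund call was lost without BCAM low 7, its lowest library, which also held the 458 CPM of parathyroid and neuroendocrine markers; their part was not tested. In differentiated libraries there were 5 of 10, where 20.1% of all genes were called, 9.98% higher and 10.2% lower: Fos lower, and Ier2 (1.55, SE 0.27, edgeR adjusted p = 0.000297), Fosb (0.95, SE 0.23, edgeR adjusted p = 0.0043), Jun (0.52, SE 0.16, edgeR adjusted p = 0.0227) and Junb (0.44, SE 0.14, edgeR adjusted p = 0.0264) higher. Thyroid and secretory transcripts moved with the batch in this group as given above, and their part in these differences was not tested. Without differentiated 7 the calls for Fosb, Jun and Junb were lost, and without differentiated 3, 5 or 6 those for Jun and Junb. The calls for Fos and Ier2 in this group held without each library in turn.

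Tests of the difference itself gave 2 calls. The gap between BCAM high and differentiated cells in Ier2 differed between batches (log2 interaction -1.46, SE 0.40, edgeR adjusted p = 0.0226), as 1 of 10 members where 8.69% of all genes were called, 3.28% with a negative sign. The gap between BCAM low and differentiated cells in Fosb also did (-1.08, SE 0.33, edgeR adjusted p = 0.0342), as 1 of 10 where 11.4% were called, 4.55% with a negative sign. For BCAM high against BCAM low none of the 10 was called by edgeR, where 1.06% of all genes were. Intervals lay above 0 for Egr1 (0.87, edgeR adjusted p = 0.0637), Fosb (1.17, edgeR adjusted p = 0.0961), Jund (1.63, edgeR adjusted p = 0.127) and Junb (0.43, edgeR adjusted p = 0.394). The Jund difference was -0.88 within batch 1 (edgeR adjusted p = 0.0568) and 0.73 within batch 2 (edgeR adjusted p = 0.468). DESeq2 called Egr1 and Fosb.

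Within the Fos family, Fos itself made up 82.3% to 96.8% of the summed TPM of its 4 genes in every library. The mean share of Fosb was larger in batch 2: 11.3% ± 4.94 (SD, n = 3) against 3.60% ± 0.457 (n = 5) in BCAM high, 8.54% ± 2.63 against 5.49% ± 1.88 in BCAM low, and 9.26% ± 4.21 against 2.73% ± 0.534 in differentiated libraries. In BCAM low the ranges of this share overlapped (5.50% to 10.2% and 3.55% to 8.58%), and there Fosb itself was not higher in batch 2 (log2 difference -0.13, edgeR adjusted p = 0.782) while Fos was lower. In other terms, the TPM ratio of Fos to Fosb was 21.95 to 31.7 in batch 1 and 5.40 to 15.9 in batch 2 of BCAM high. It was 27.5 to 49.3 and 6.35 to 18.9 in differentiated libraries, again with no overlap, and 10.4 to 26.8 and 8.52 to 16.7 in BCAM low, with overlap. In the Jun family Junb held the largest mean share, 54.1% (BCAM high), 60.3% (BCAM low) and 60.0% (differentiated). Jun held 45.2%, 38.6% and 39.1%, and Jund 0.689%, 1.10% and 0.839%.

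**Figure D4:**
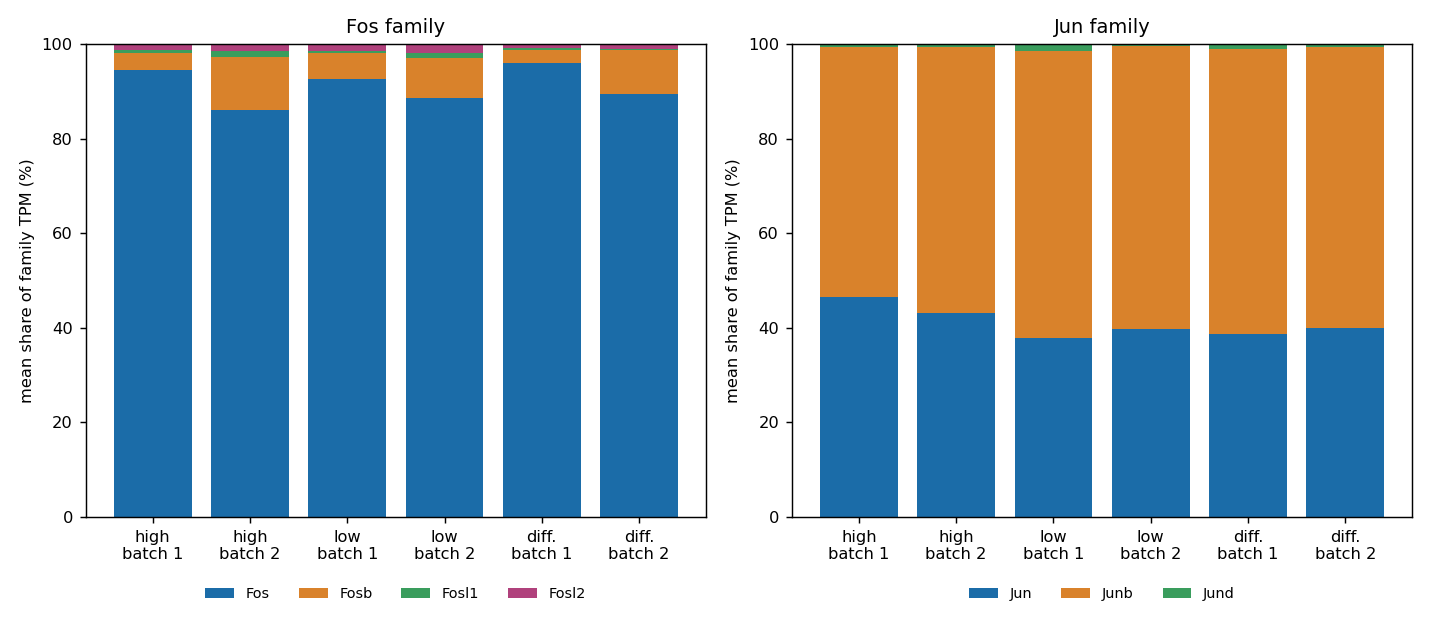
Mean share (y axis, percent) of each gene in the summed TPM of the Fos family (left) and the Jun family (right), by group and batch (x axis; 5 libraries in batch 1 and 3 in batch 2). Fosb takes 11.3% of the Fos family in BCAM high of batch 2 against 3.60% in batch 1, while Junb takes 52.8% to 60.7% of the Jun family in the 6 bars.

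For Fos, Egr1 and Atf3 a single transcript held most of the counts. Fos-201 took 99.0% of the Fos counts, Egr1-202 95.2% of Egr1 and Atf3-201 91.2% of Atf3. Fosb was spread more widely: Fosb-207, with a coding sequence of 201 codons, took 44.4%, Fosb-201, the full-length form of 338 codons, 27.6%, and the retained-intron transcript Fosb-204 18.0%. Fosb-206, of 237 codons, took 1.43%. For Fosl2, retained-intron transcripts took 18.8% and 4.03%. Division of 38-bp reads among overlapping transcripts is uncertain, and a short transcript such as Fosl1-203, of 357 bases, inflates the summed TPM of its gene.

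The members were then compared library by library, each log2 CPM taken as its deviation from the mean of its group and batch. Of 45 pairs over 24 libraries, 28 had a positive Pearson correlation, the median r was 0.0971 and the range was -0.603 to 0.723. The highest was that of Fos and Atf3 (Pearson r = 0.723, Spearman rho = 0.705). Within batch 1 (15 libraries) r was 0.788, within batch 2 (9 libraries) 0.683, and without the 2 libraries farthest from the median of Fos 0.696. Junb and Egr1 came next (Pearson r = 0.659, Spearman rho = 0.618), with r of 0.786 within batch 1, 0.300 within batch 2 and 0.599 without the 2 farthest libraries. Fos and Ier2 had the lowest (Pearson r = -0.603, Spearman rho = -0.617). The 24 libraries are not independent here, since those with the same number deviated together: Fos had the same sign in all 3 groups for 7 of the 8 numbers and Atf3 for 6. Deviations were therefore averaged over libraries with the same number, and the 8 averages were compared by exact permutation within batches, which cannot give a p below 0.00139. None of the 45 pairs then passed Benjamini-Hochberg adjustment. Fos and Atf3 had r = 0.764 (exact permutation p = 0.0458, adjusted p = 0.696; rho = 0.667, exact permutation p = 0.0972), Junb and Egr1 r = 0.582 (exact permutation p = 0.164, adjusted p = 0.799; rho = 0.381, exact permutation p = 0.385), and Fos and Ier2 r = -0.969 (exact permutation p = 0.00556, adjusted p = 0.25; rho = -0.881, exact permutation p = 0.0264). Libraries share their scaling by TMM.

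**Figure D5:**
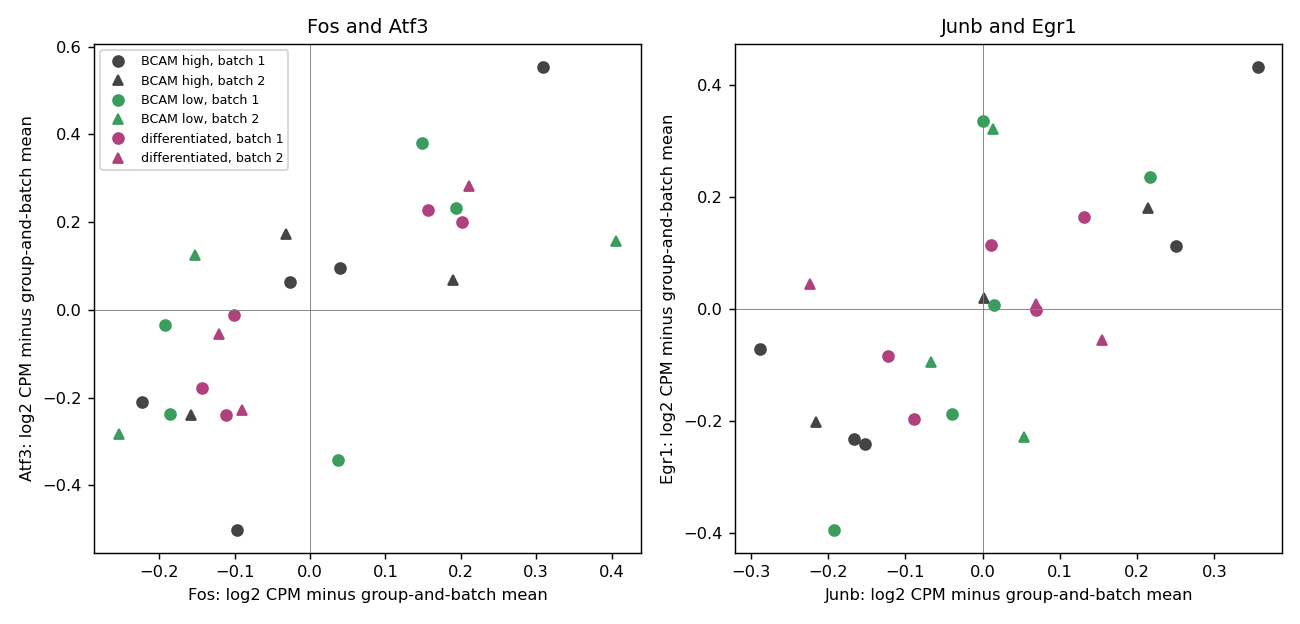
Deviation of log2 CPM from the mean of its group and batch for Fos (x axis) and Atf3 (y axis) on the left, and for Junb (x axis) and Egr1 (y axis) on the right. Each point is 1 of 24 libraries, coloured by group, with circles for batch 1 and triangles for batch 2. Points rise from lower left to upper right, with r of 0.723 and 0.659 over libraries that are not independent.

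The correlation of each member with the mean z-score of all 10, which contains the member, ran from 0.05 for Ier2 to 0.64 for Egr1. Among 9013 other genes, those most like that mean over the 24 libraries were Aqr (r = 0.706), Acot2 (r = 0.706), Tap1 (r = 0.687), Atn1 (r = 0.681) and Ehd4 (r = 0.639), given as a description.

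Other genes of the response are given for context, from lists named with earlier results of these data known. Their counts are to be read against the shares of all genes called as higher and lower, 2.43% and 4.59% between the BCAM groups, 19.4% and 22% in BCAM high against differentiated cells, 16.3% and 17.1% in BCAM low against differentiated cells, and 11.8% and 9.61% in batch 2. Of the other immediate early genes (28 of 30 tested), 7 were higher and none lower in BCAM high than in BCAM low, with a median log2 difference of 0.30. They included Ccn1 (1.43), a secreted matrix protein, Egr2 (0.78), a relative of Egr1, and Socs3 (0.76), an inhibitor of cytokine signalling. Against differentiated cells 12 were higher and 3 lower in BCAM high (19.4% and 22% of all genes), led by Arc (1.97), Egr2 (1.90) and Klf10 (1.80), with Dusp2 (-2.08) and Errfi1 (-0.78) lower. In BCAM low, 9 were higher, led by Arc (1.71), Klf10 (1.20) and Egr2 (1.12), and 5 lower, among them Dusp2 (-1.96), Ccn1 (-0.80) and Ier3 (-0.75). In batch 2, 6 were higher (Dusp2 1.68, Arc 0.96 and Egr2 0.85 first) and 8 lower, among them Zfp36 (-1.14), whose protein speeds decay of short-lived transcripts, Ccn2 (-1.07) and Sgk1 (-0.67). Medians in the latter comparisons were 0.40, 0.26 and 0.00, against 0.02, 0.02 and 0.01 over all genes.

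Feedback inhibitors of MAP kinase signalling (13 of 14 tested, sharing Dusp1, Dusp2, Dusp5 and Errfi1 with the former list) had 3 higher and none lower in BCAM high than in BCAM low: Spry1 (0.79), Dusp6 (0.66) and Spry2 (0.65). The median of that list was -0.09 all the same. Against differentiated cells 6 were higher in BCAM high, led by Spry2 (2.05), Spred2 (2.01) and Spry1 (1.89), and 4 lower, with Dusp16 (-0.58) beside those named. In BCAM low there were 7 higher (Spred2 1.81, Spry2 1.40 and Spry1 1.10 first) and 3 lower, with Errfi1 at -0.69. Batch 2 had 2 higher and 4 lower, among them Dusp10 (-0.97), Dusp6 (-0.92), which acts on ERK, and Spry2 (-0.55). Medians in these were 0.60, 0.88 and 0.00.

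Of AP-1 target genes, 14 of 25 were tested. Areg (-1.80), an EGF receptor ligand, and Ptgs2 (-1.05), the inducible cyclooxygenase, were lower in BCAM high than in BCAM low and none was higher. Against differentiated cells 6 were higher in BCAM high, led by F3 (1.88), Gclm (1.496) and Lmna (0.75), and 3 lower: Areg (-1.05), Hmox1 (-0.83) and Tgfa (-0.69). In BCAM low 5 were higher, led by F3 (1.46), Gclm (1.40) and Hbegf (0.60), and 2 lower, Cxcl1 (-1.88) and Hmox1 (-0.73). Batch 2 had 2 higher, Areg (1.36) and Hbegf (0.54), and 2 lower, among them Vim (-1.70). The medians of this list were 0.09, 0.13, 0.56 and -0.03 in these comparisons.

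The upstream kinases and promoter factors (16 of 16 tested) had a single call between the BCAM groups, Map2k2 (-0.82). In BCAM high against differentiated cells (19.4% of all genes higher and 22% lower) 5 were higher (Elk4 0.79, Mrtfb 0.75 and Mapk14 0.73 first) and 5 lower (Map2k2 -1.40, Mapk9 -0.81 and Map2k7 -0.66 first). In BCAM low against differentiated cells 3 were higher, Elk4 (0.88), Mapk14 (0.73) and Mrtfb (0.61), and 3 lower, Mapk9 (-0.79), Map2k2 (-0.58) and Map2k1 (-0.45). In batch 2 Map2k7 (0.69) and Mrtfb (0.50) were higher and Mapk3 (-0.42) lower. Medians were 0.01, 0.00, 0.02 and 0.04. The leucine zipper partners and relatives (10 of 16 tested) had no call between the BCAM groups or between batches. In BCAM high against differentiated cells Mafk (0.49) and Atf7 (0.32) were higher and 2 were lower, among them Crem (-0.95). In BCAM low Creb1 (0.56) was higher and 2 were lower, again with Crem (-0.87). Medians were -0.01, 0.12, 0.04 and 0.06.

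Heat shock genes (12 of 12 tested) had Dnajb1 (0.47) higher in BCAM high than in BCAM low. Against differentiated cells, where 41.3% of all genes were called, 4 were higher and 2 lower in BCAM high (Dnajb1 1.78, Bag3 1.13 and Hspb1 0.86; Hsph1 -0.89 and Dnaja1 -0.25). In BCAM low 4 were higher and 3 lower (Dnajb1 1.31, Hspb1 0.99 and Hspa1b 0.88; Hsph1 -0.69, Hspa8 -0.38 and Dnaja1 -0.33), where Hspa1b shares reads with its near-identical neighbour Hspa1a. In batch 2 Dnaja1 (0.28) was higher and Hsp90ab1 (-0.18) lower. Medians were 0.10, 0.19, 0.05 and -0.04. On the TPM scale, with its shift of all genes, Errfi1, Mapk9, Map2k7, Dusp16, Tgfa, Hmox1, Dnaja1, Hsph1, Hspa8 and Hsp90ab1 changed sign in at least 1 comparison.

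Some of the listed calls rest on single libraries. Of the genes named above, 6 of 10 calls between the BCAM groups held without each library in turn, 24 of 29 in BCAM high against differentiated cells, 22 of 29 in BCAM low against differentiated cells and 14 of 17 between batches. Between the BCAM groups Egr2 (adjusted p at most 0.104), Spry1 (0.089), Ptgs2 (0.117) and Dnajb1 (0.127) were lost at least once. In BCAM high against differentiated cells Areg was lost in 12 of 24 such fits, Atf7 in 10, Dnaja1 in 8, Dusp16 in 7 and Tgfa without differentiated 7. In BCAM low Hspa1b was lost in 19, Errfi1 and Hmox1 in 12 each, Hsph1 in 10, Creb1 in 7, Ccn1 without differentiated 1 or 6, and Map2k2 without differentiated 3. Between batches Hsp90ab1 was lost in 13, Sgk1 in 12 and Dnaja1 without BCAM high 6.

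Without the 3 differentiated libraries of batch 2, all 10 calls between the BCAM groups held. In BCAM high against differentiated cells 6 of 29 were lost: Dusp2 (-0.61 in place of -2.08), Errfi1 (-0.35), Mafk (0.22), Areg (-0.99), Hmox1 (-0.68) and Tgfa (-0.49), with edgeR adjusted p from 0.133 to 0.39. In BCAM low 9 of 29 were lost: Dusp2 (-0.66 in place of -1.96), Ccn1 (-0.68), Crem (-0.65), Map2k2 (-0.44), Map2k1 (-0.37), Errfi1 (-0.26), Cxcl1 (-0.98), Hmox1 (-0.59) and Hspa1b (0.89), with edgeR adjusted p from 0.0551 to 0.507. Between batches 6 of 17 were lost: Dusp2 (0.53 in place of 1.68), Egr2 (0.49), Sgk1 (-0.14), Mapk3 (-0.32), Vim (-1.45) and Hsp90ab1 (-0.09), with edgeR adjusted p from 0.0712 to 0.443. These fits test fewer libraries and 12881 genes, of which 36.9%, 30.3% and 17.4% were called in these 3 comparisons.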

How the data were processed

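RNA was measured in 24 libraries, 8 per group, with groups and batches taken from the labels. Per the file headers, each deposited table gives estimated counts and TPM per transcript; the submitters' processing notes name kallisto 46.1, Picard and GRCm39, and no pooling is stated. The authors' TPM are scaled to transcript length and library, and the deposited estimated counts carry no normalization. Of 117497 transcripts, 116374 matched GENCODE M21 (GRCm38) identifiers, which supplied symbols and coordinates; the 1123 unmatched held 0.317% to 0.594% of counts. Counts were summed per gene and rounded. No libraries were near-duplicates.

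The test was edgeR 4.0.16 (R 4.3.3) quasi-likelihood with TMM on 12211 genes kept by its default count filter, fitted to all libraries together with group means and batch, with BH adjustment over all genes and calls at adjusted p under 0.05. A model of 6 group-by-batch means gave batch differences and interactions. The SE is the absolute log2 change over the square root of F. The 95% intervals reach 1.96 SE to each side and are not derived from the F-test, so they can be too narrow. For Fosl1 between batches in BCAM high the interval was 0.006 to 1.62 where the edgeR p was 0.0574. Scripts were tested on simulated data. Alternatives used DESeq2 1.42.0, limma 3.58.1 on log2(TPM + 1) and log2(TPM + 0.1), no filter, single batches, a replicate block, each library left out, and, added after seeing the data, no differentiated libraries of batch 2. Correlations between members were tested by exact permutation within batches of deviations averaged over same-numbered libraries, also added after seeing the data.

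The 10 genes, the lists, the tests and the rule for named genes were chosen with earlier results of these data known. The rule named all 10 members and, per list, comparison and direction, up to 3 called genes with the largest change and a mean of at least 10 CPM, plus the 5 genes most like the members' mean. The protein sequences of the members were not used here, nor were promoters of Egr1, Fosl1 and Ier2.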

Additional observations from a re-analysis of the deposited data

Results flagged for a closer look

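The difference in Ier2 between BCAM high and differentiated cells was not the same in the batches: the log2 interaction was -1.46 (edgeR adjusted p = 0.0226). In batch 1 Ier2 was 132 to 178 CPM in BCAM high and 103 to 221 in differentiated libraries, and in batch 2 it was 130 to 176 and 234 to 675. The call was lost without BCAM high 6, differentiated 6 or differentiated 7 (adjusted p at most 0.0826), and thyroid markers in differentiated libraries were 13848 to 26044 CPM in batch 1 and 49671 to 117222 in batch 2, whose part was not tested.

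The difference in Fosb between BCAM low and differentiated cells also depended on the batch, with a log2 interaction of -1.08 (edgeR adjusted p = 0.0342). In batch 1 Fosb was 281 to 546 CPM in BCAM low and 163 to 258 in differentiated libraries, and in batch 2 it was 303 to 382 and 263 to 517. This call was lost in 9 of the 24 fits that leave out 1 library (BCAM low 3, 6, 7 or 8, or differentiated 2, 3, 5, 6 or 7), with an adjusted p of at most 0.147. No library stood apart from its group by Dixon's criterion in any of 30 combinations of gene and group. Chance would flag about 1 in 20 if libraries of a group differed only at random. The criterion pooled both batches, so a gap between batches can hide a library from it. So can a pair of high libraries, such as differentiated 6 and 7 in Ier2.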

How the results depend on the processing

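The numbers of members called moved by over 1.5 times in these cases. BCAM high against BCAM low had 2 calls, with 4 by limma on log2(TPM + 1), where 6.88% of all genes were called. It had 0 within batch 1 alone or batch 2 alone, where 5.69% and 4.38% of all genes were called. BCAM low against differentiated had 3, with 7 on log2(TPM + 1) and 7 on log2(TPM + 0.1), where 30.6% and 31.3% of all genes were called as higher and the median of all genes is shifted by 0.39 on the former scale. Shares of all genes called stand in brackets below. The batch comparison had 6 (21.4%), with 3 (17.4%) when the 3 differentiated libraries of batch 2 were left out. Batch in BCAM low had 2 (11.1%), with 4 (4.99%) without the count filter. The interaction of batch with BCAM high against BCAM low had 0 (1.06%), with 2 by DESeq2 (1.89%) and 2 without the filter (0.876%). That with BCAM low against differentiated had 1 (11.4%), with 2 by DESeq2 (13.1%) and 2 without the filter (4.97%). It had 2 on log2(TPM + 1) (5.23%) and 2 on log2(TPM + 0.1) (4.56%). The cause was not tested.

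Leaving out each library in turn gave 1 to 3 calls for BCAM high against BCAM low, 6 to 7 for BCAM high against differentiated, 2 to 3 for BCAM low against differentiated and 5 to 6 for batch. It gave 0 to 4 for batch in BCAM high, 1 to 3 in BCAM low, 2 to 5 in differentiated libraries, and 0 to 1, 0 to 1 and 0 to 2 for the interactions, in the order given in the report.

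Signs changed as follows, on log2(TPM + 1) and log2(TPM + 0.1). In BCAM high against differentiated cells Ier2 became 0.075 and 0.078, Errfi1 0.085 and 0.096, Mapk9 0.031 and 0.031, Map2k7 0.52 and 0.58, Dusp16 0.21 and 0.24, Tgfa 0.31 and 0.39, Dnaja1 0.43 and 0.43, and Hmox1 0.0021 on the former. In BCAM low against differentiated cells Jun became 0.53 and 0.53, Hsph1 0.054 and 0.050, Hspa8 0.0079 and 0.0079, Dnaja1 0.16 and 0.16, and Errfi1 0.0031 on the latter. Between batches Hsp90ab1 became 0.045 and 0.045. Within batch 2 alone Fosb became -0.19 and Hsph1 0.036 in BCAM low against differentiated cells, and Dusp16 0.18 in BCAM high against differentiated cells. These are differences before the shift of all genes on the TPM scale is taken off.

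Libraries with the same number correlated in their deviations from the group-and-batch means at r of 0.03 to 0.18 (7 of 24 pairs over 0.1). The median r was 0.08, against -0.02 for pairs with other numbers. The main fit did not pair them. Each of the 24 libraries was also compared with each other group within its batch. In 46 of these 48 comparisons the best correlation was with its own number. Same-numbered libraries thus varied together beyond group and batch, and the labels do not name a shared source. With the replicate block the calls were 3, 7 and 3 in the group comparisons, against 2, 7 and 3. Of all genes 7.08%, 42% and 33.9% were called with the block. The call gained between the BCAM groups was that of Atf3 (0.42, edgeR adjusted p = 0.0054). Fosl1 and Jund, with the lowest counts, have the widest intervals.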
